A study of Mus musculus with 8 samples.

Results

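The comparison described here covered all genes of the array. It set AIM-/- mouse liver against AIM+/+ mouse liver after 6 weeks of high-fat diet, 1 array against 1. These are 2 of the 8 arrays of the study, which measured total RNA of mouse liver on one-colour Agilent arrays, 1 array per genotype at 0 (chow), 6, 12 and 20 weeks of diet. Both genotypes had a C57Bl/6 background, and the labels name neither sex, age nor whether RNA of several mice was pooled. AIM (apoptosis inhibitor of macrophage) is encoded by Cd5l, and the wild-type array carries AIM+/+ RNA while the knockout array carries AIM-/- RNA. With 1 array per group there is no replicate error at 6 weeks, so no p-value is given for any difference between these 2 arrays. The differences of the other weeks and the spot error computed by the scanner software stand in as yardsticks.

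AIM is a secreted protein of tissue macrophages, in the liver mainly of Kupffer cells, and circulates bound to immunoglobulin M. It enters fat cells and hepatocytes, where it lowers fatty acid synthase activity and lipid droplet size, and mice without it are known to accumulate more liver fat and to develop liver tumours on prolonged high-fat feeding. A high-fat diet itself is known to raise lipid droplet proteins in hepatocytes and to shift the expression of sex-biased liver genes, which follow the pattern of growth hormone release.

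Both arrays were of similar quality. Of 41174 probes, 19219 were well above background on the wild-type array and 19475 on the knockout array, and replicate spots of a probe differed by a median coefficient of variation of 4.08% and 3.50%. The knockout array was brighter, its 75th percentile standing at 302 signal units against 234, a ratio of 1.29. Signals are printed below as scanned, while every difference is taken after each array's log2 signal was scaled by that percentile. The wild-type arrays of the study lie on one slide and scan and the knockout arrays on another, so genotype and slide cannot be told apart. Of the Y-linked genes, 3 of 4 were well above background on both 6-week arrays and lay between -0.25 and -0.02 on the log2 scale in the knockout, and none of them was well above background on either 20-week array. Of 4 probes for Xist, the X-inactivation RNA of female cells, 1 was well above background on the knockout array (signal 165, against 10.98 on the wild-type array) and 3 were at background on both. On both 20-week arrays all 4 Xist probes were well above background, the brightest at 4434 on the wild-type and 4312 on the knockout array. The 20-week arrays thus differ from the 6-week arrays in sex-linked genes as well as in weeks of diet, and their values for sex-biased genes are to be read beside this. The counts and the contrast that use the 20-week arrays are also given without them.

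The targeted gene separated the genotypes. The Cd5l probe, on chromosome 3 at 87456828 to 87456887 (mm8), read 19978 on the wild-type and 140 on the knockout array at 6 weeks. The log2 difference was -7.53, beside -7.02, -7.47 and -7.37 at 0, 12 and 20 weeks. The knockout signal was still well above background.

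Between the genotypes, 1355 of the 14402 genes detected (signal well above background on either array or both) lay at least 2-fold apart (9.41%). Of these, 634 were higher (4.4%) and 721 lower (5.01%) in the knockout. Dim signals made up much of this count: 877 of the 1355 genes were well above background on only 1 of both arrays, and 383 of them on no other array of the 8. Among the 12902 genes well above background on both arrays, 478 lay at least 2-fold apart (3.7%), 206 of them higher (1.6%) and 272 lower (2.11%). The first rule, with 1 array detected, called 10.8% of genes in chow, 7.14% after 12 weeks of diet and 6.82% after 20 weeks. The median difference over all 14402 genes was -0.05, and among the 1291 brightest genes on both arrays it was -0.16.

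**Figure D1:**
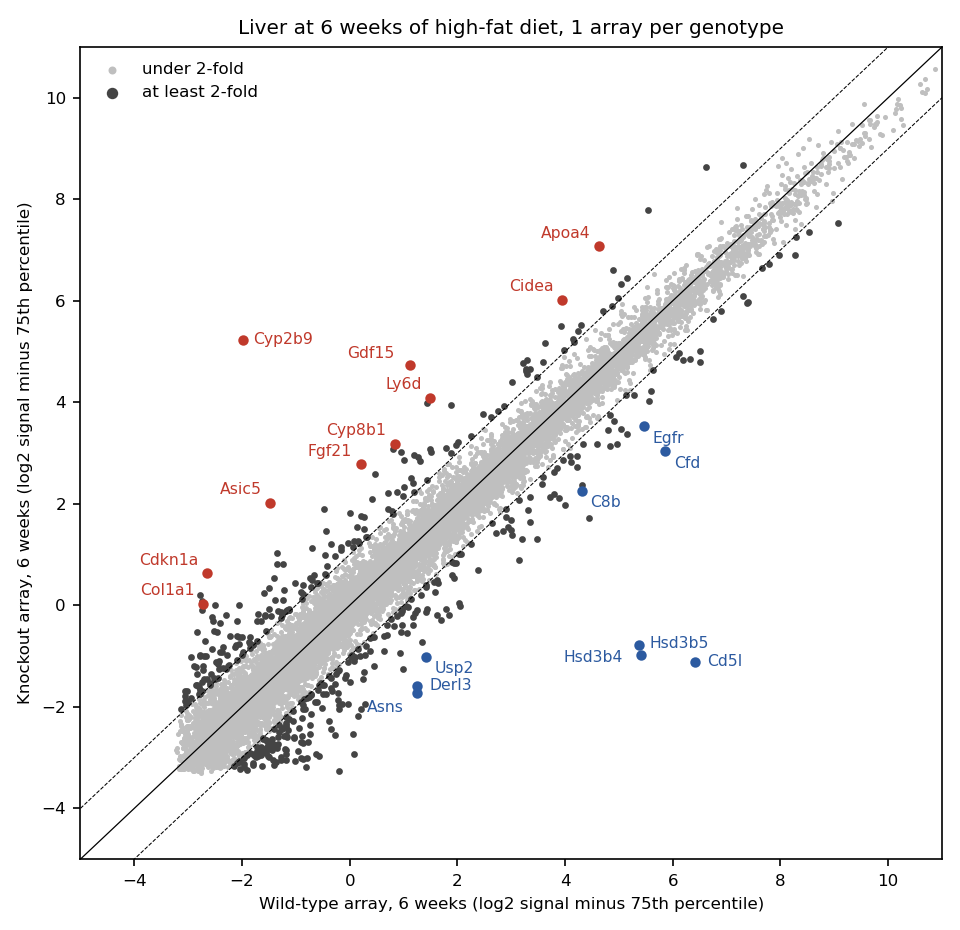
Scaled log2 signal of genes well above background on both 6-week arrays, wild type on the x axis and knockout on the y axis, 1 point per gene. The solid line marks equality and the dashed lines 2-fold; 206 genes lie above and 272 below the dashed band, with Cyp2b9 highest above it and Cd5l lowest below it.

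Most of these genes were not 2-fold apart the same way in other weeks. Of 391 genes with a symbol that were at least 2-fold apart with signal on both arrays (178 higher and 213 lower), 306 were not 2-fold apart the same way at any other week, 68 were at 1 other week and 12 at 2. Without the 20-week arrays, 321 were not 2-fold apart the same way in chow or at 12 weeks. Leaving out a week can only keep or raise this count. In chow, 50 of the 391 were 2-fold apart the same way and 69 the opposite way. Among all genes well above background on both arrays of a week, 4.23% lay 2-fold apart either way in chow. At 12 and 20 weeks these shares were 2.12% and 2.15%. The counts for the 391 required no such signal in the other weeks. These counts are no test of a difference between weeks, and the limma contrast of 6 weeks against the other weeks, given at the end, passed 0 of 14969 genes. Only 5 were at all 3 other weeks. They were Cd5l, Asic5 (higher, 3.50 at 6 weeks and 2.93 to 3.53 in the other weeks), Wars2 (higher, 1.94 and 2.17 to 2.56), Lrmda (lower, -2.41 and -2.93 to -2.80) and 4933406C10Rik (lower, -1.09 and -1.51 to -1.04). Asic5, an ion channel subunit, and Wars2, a mitochondrial tRNA synthetase, have their probes on chromosome 3, as Cd5l does, at 82100360 to 82105375 and at 99348148 to 99348207 (mm8). Asic5 read 84.3 on the wild-type and 1228 on the knockout array at 6 weeks. Wars2 read 42.3 and 209. Lrmda, whose probe lies on chromosome 14, read 158 and 38.4.

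For 255 of the 391 genes it was the wild-type array at 6 weeks that lay farther from the median of the other 6 arrays, against 136 for the knockout array. The wild-type signal lay outside the range of the other 6 arrays while the knockout signal lay inside it for 140 genes. The opposite held for 74 genes, both lay outside for 43 and neither for 134. Against the 4 chow and 12-week arrays alone, the wild-type array lay farther from the median for 241 genes and the knockout array for 150, and the counts outside the range were 143 and 78. So where the 6-week genotypes differed, the knockout value was more often the one within the range of the other arrays, with or without the 20-week pair.

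The position of both arrays along the course of the diet was then measured, a comparison chosen after values of single genes had been seen. Genes with a symbol were selected on the chow and 12-week arrays alone, as those whose 12-week arrays both lay above or both below the chow arrays, by a mean of at least 2-fold. Of 1013 such genes that were higher at 12 weeks than in chow, 671 (66.2%) were higher in the knockout at 6 weeks, with a median difference of 0.27, while 44.1% of all genes were. Of 359 that were lower at 12 weeks, 271 (75.5%) were lower in the knockout, with a median of -0.38, while 55.9% of all genes were. With 0% as the chow level and 100% as the 12-week level, the median position was 28.0% on the wild-type and 41.9% on the knockout array for the first group, and 35.6% and 61.2% for the second. The size of the difference depended on the arrays that chose the genes. Chosen on the wild-type arrays alone, the medians were 0.15 and -0.21, with 58.3% and 67.9% of genes further along in the knockout, and chosen on the knockout arrays alone they were 0.19 and -0.21. Over the first choice, the knockout array had passed the midpoint and the wild-type array had not in 203 and 122 genes, and the reverse held in 93 and 28. At least 2-fold, the knockout was further along in 145 and 73 genes and the wild type in 29 and 18. Of the 391 genes above, 156 were among these diet genes (39.9% of the 391 and 11.4% of the 1372 diet genes). In 138 of the 156 the knockout lay on the 12-week side. For scale, 3.7% of all genes well above background on both 6-week arrays were 2-fold apart. The 391 came from 11370 genes with a symbol and such signal, and the share of diet genes among those 11370 was not computed.

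**Figure D2:**
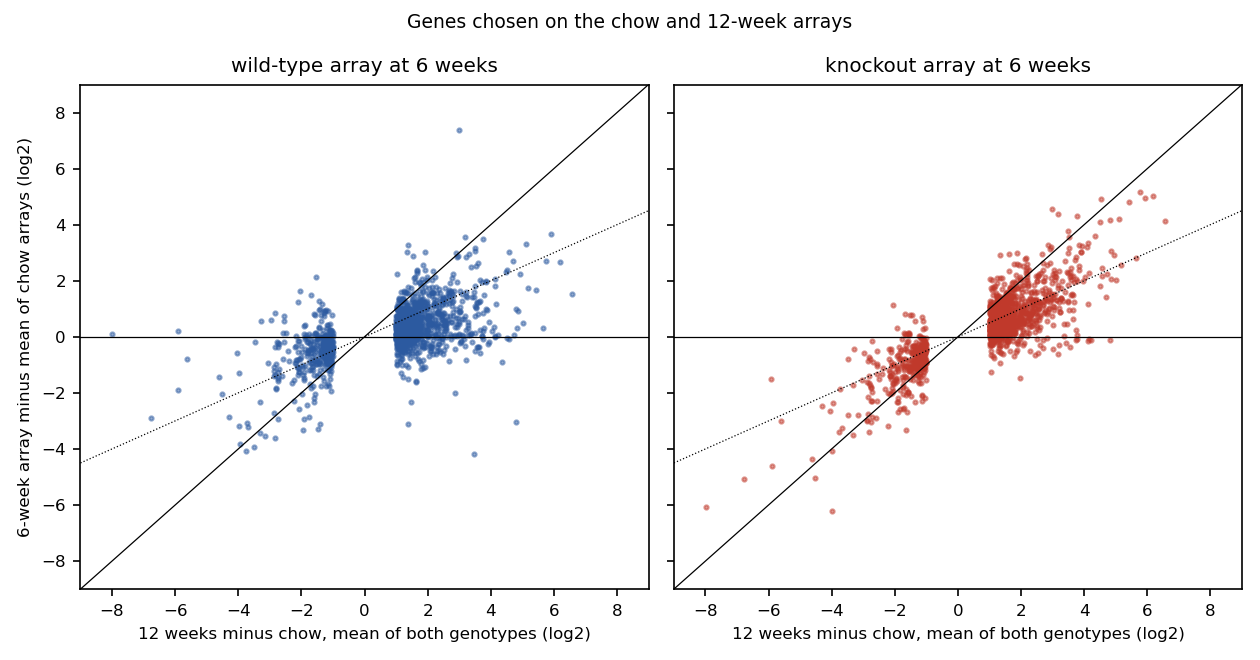
Each point is 1 of 1372 genes chosen on the chow and 12-week arrays; the x axis gives 12 weeks minus chow (mean of both genotypes, log2) and the y axis the 6-week array minus the mean of the chow arrays (log2), wild type left and knockout right. The solid diagonal marks the 12-week level and the dotted line the midpoint; the knockout points lie closer to the diagonal, at median positions of 41.9% and 61.2% against 28.0% and 35.6% in the wild type.

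Cytochrome P450 genes of the Cyp2b family led the genes higher in the knockout. These enzymes oxidise steroids and drugs, are induced through the receptor CAR, and Cyp2b9 and Cyp2b13 are expressed mainly in female liver. Cyp2b9 read 642 and 493 in chow (wild type, then knockout) and 59.4 and 11295 at 6 weeks. Later it read 18167 and 14871 (12 weeks), then 42060 and 45221 (20 weeks). The knockout was thus near the 12-week arrays at 6 weeks, while the wild type lay below both chow arrays. The log2 difference was 7.20 at 6 weeks with a spot error of 0.24, and lay between -0.54 and 0.05 in the other weeks. Cyp2b13 was not well above background on the wild-type array (12.5) and read 2310 on the knockout array, at least 72.8-fold higher. It read 310 and 217 in chow and 3638 and 2535 at 12 weeks. Cyp2b10 followed the same order, at 15.7, not well above background, against 329, at least 10.4-fold higher. The 3 genes lie on chromosome 7 and are close copies, so their probes may share signal.

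The bases before the start sites of Cyp2b9 and Cyp2b13 show how alike these copies are. In RefSeq sequence (GRCm38.p6), the 250 bases before the start lie at chr7:26173159-26173408, plus strand for Cyp2b9 and at chr7:26061245-26061494, plus strand for Cyp2b13. They are identical at 248 of 250 positions (99.2%), and the capitals mark the positions that differ.
Cyp2b9: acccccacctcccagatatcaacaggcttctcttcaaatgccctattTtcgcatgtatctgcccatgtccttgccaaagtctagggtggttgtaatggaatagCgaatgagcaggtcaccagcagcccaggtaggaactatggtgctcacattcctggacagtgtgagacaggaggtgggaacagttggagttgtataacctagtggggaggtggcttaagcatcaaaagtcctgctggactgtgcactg
Cyp2b13: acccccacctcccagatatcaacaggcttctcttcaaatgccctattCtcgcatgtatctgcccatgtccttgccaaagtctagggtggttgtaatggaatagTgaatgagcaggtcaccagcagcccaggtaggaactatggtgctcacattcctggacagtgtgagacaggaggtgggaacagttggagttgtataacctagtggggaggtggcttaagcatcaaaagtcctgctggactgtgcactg
Their measured log2 differences at 6 weeks were 7.20 and 7.16, the second resting on a dim wild-type signal. A letter search found no TTCNNNGAA, the motif of the growth hormone factor STAT5, on either strand of these windows. That motif stands in 7.02% of all promoter windows of this length.

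Female-biased genes, Cyp2b9 and Cyp2b13 among them, were mostly higher. Of 26 on the array, 17 were detected on either 6-week array, 15 of these were higher in the knockout (88.2%, against 44.1% of all genes), 5 at least 2-fold (29.4%, against 4.4%), and the median was 0.50. Ntrk2, a neurotrophin receptor, read 41.2 and 304 (difference 2.51), but it was also higher in the knockout in chow, by 2.998. Vldlr, which takes up triglyceride-rich lipoproteins, read 78.2 and 359 (1.83). Acot3, a peroxisomal acyl-CoA thioesterase, read 56.6 and 197 (1.43). Cyp2c40, Cyp3a41a, Cyp3a16 and Cyp2a4, which are also female-biased, differed by -0.04 to 0.16.

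Male-biased genes were lower. All 27 on the array passed the filter, 25 were lower in the knockout (92.6%, against 55.9% of all genes), 11 at least 2-fold (40.7%, against 5.01%), and the median was -0.59, while 1 was at least 2-fold higher. Hsd3b5, a steroid dehydrogenase of male liver, read 14976 and 7436 in chow, 9996 and 154 at 6 weeks, and at most 29.96 on the 4 later arrays, both 12-week arrays being at background. At 6 weeks the wild type stayed near its chow level and the knockout lay between chow and the later weeks, with a difference of -6.39 (spot error 0.21). Its neighbour Hsd3b4, on the same chromosome as Cd5l, read 9693 and 174 (-6.16), but these copies are close in sequence and may share signal. Hsd3b2 differed by -0.88. Egfr, the epidermal growth factor receptor, read 11982 and 19234 in chow, 10323 and 3500 at 6 weeks, and 2039 to 3414 later, with 2139 and 2695 at 12 weeks. Its difference at 6 weeks was -1.93, and its 4 other probes gave -2.40 to -1.72. Slco1a1, an organic anion carrier of male liver, read 2394 and 938 at 6 weeks, and 2165 and 2620 in chow, and lay at 63.7 or below later. Bcl6, a repressor of female-biased genes, read 4659 and 1553 (-1.95). Elovl3, a fatty acid elongase, was the gene at least 2-fold higher (1.10). Moxd1, with 394 and 6.61 (at least 16.7-fold lower), was well above background on just 1 other array, the chow knockout at 3468.

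Genes of growth hormone signalling itself had a smaller median difference. Of 18 measured, 13 were lower in the knockout (72.2%, against 55.9% of all genes). At least 2-fold lower were 3 (16.7%, against 5.01%), with a median of -0.29, or -0.14 after quantile normalisation. The receptor Ghr differed by -0.29 and Igf1 by -0.31. Socs3 (-1.39) and Cish (-1.31), both inhibitors of cytokine signalling, and Lifr (-1.56), the receptor of leukaemia inhibitory factor, were lower, and Igfbp3, a carrier of IGF1, was higher (1.06).

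**Figure D3:**
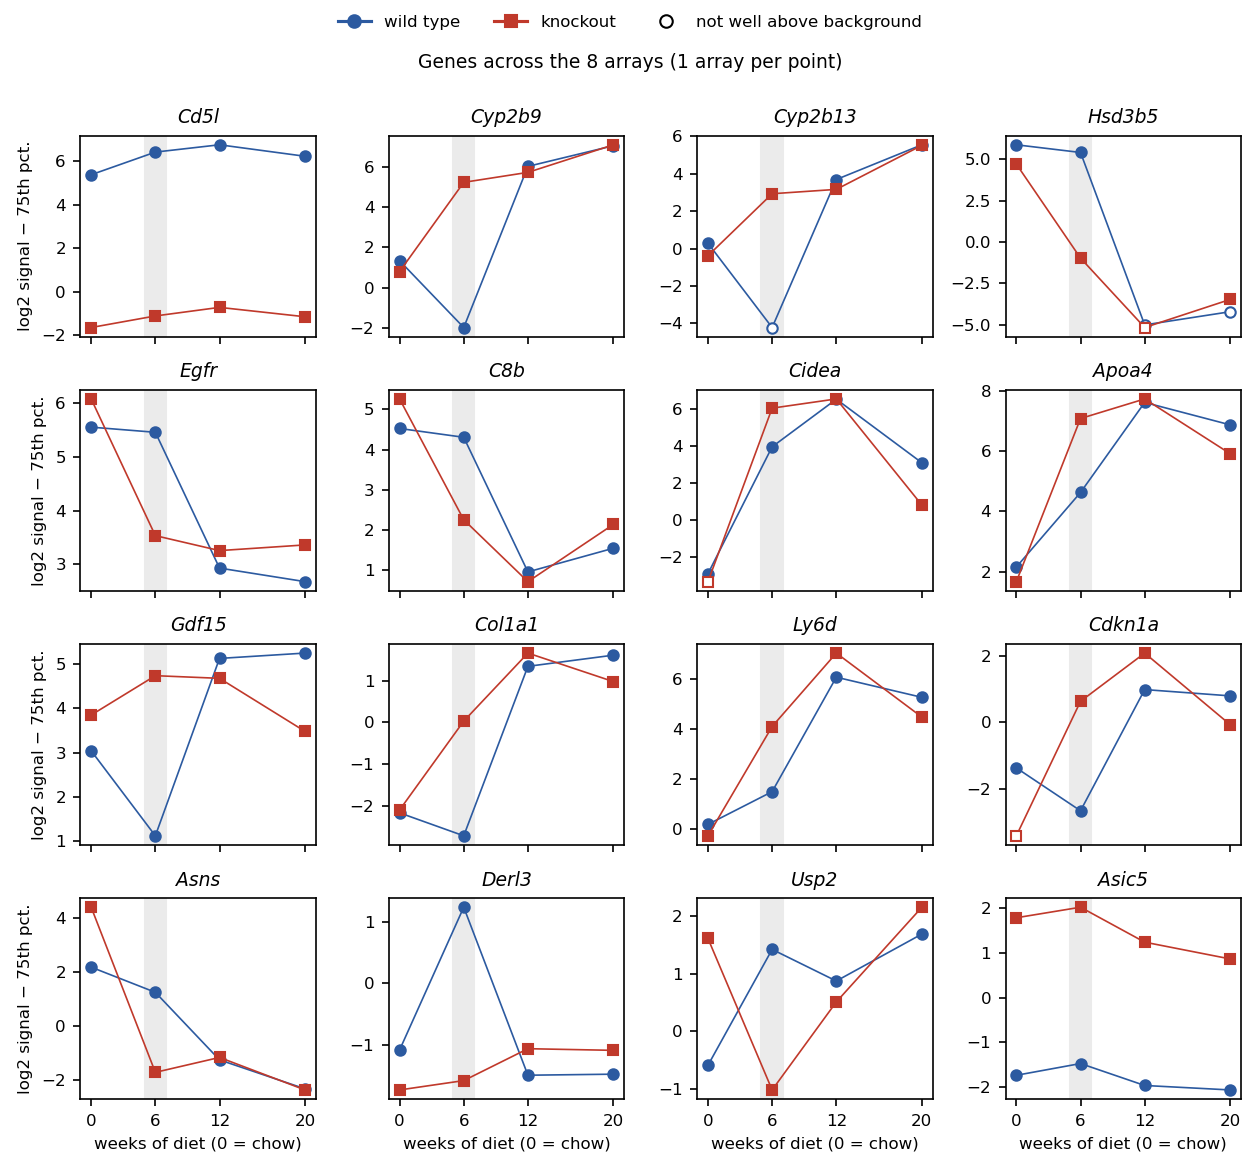
Scaled log2 signal of 16 genes on the 8 arrays against weeks of diet, wild type as circles and knockout as squares, open where the signal was not well above background, with 6 weeks shaded. In Cyp2b9, Hsd3b5, Egfr, C8b and Col1a1 the 6-week wild-type point lies near or below chow and the knockout point nearer the 12-week level, in Ly6d both lie above chow, the knockout higher, while Cd5l and Asic5 keep their distance at every week.

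Lipid droplet genes were higher in the knockout. Of 26 on the array, 25 passed and 22 were higher (88.0%, against 44.1% of all genes). At least 2-fold higher were 7 (28.0%, against 4.4%) and none was 2-fold lower, with a median of 0.42. Cidea and Cidec, which join droplets into larger ones, led the coat proteins. Cidea read 34.4 and 28.6 in chow, the latter not well above background, 3601 and 19606 at 6 weeks (a difference of 2.08), and 25449 and 25839 by week 12. Cidec read 7731 and 24218 (1.28), and Plin4, a perilipin, 1306 and 4105 (1.29). Both 6-week arrays lay above both chow arrays in these 3 genes, and the knockout array lay above the wild type. Plin2, the main perilipin of hepatocytes, read 74844 and 143119 (0.57). Apoa4, an apolipoprotein of lipid export, read 5775 and 40678 (2.45), and both chow arrays stood at 1130 or less. Mogat1, an acyltransferase of triglyceride synthesis, read 534 and 2337 (1.76), and its 2 other probes gave 1.99 and 2.04. Hsd17b13, a droplet-bound enzyme, was higher by 1.05, G0s2, an inhibitor of the lipase ATGL, by 1.02, and Cd36, a fatty acid receptor through which AIM enters cells, by 0.94.

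Fatty acid synthesis genes had a smaller median difference. All 24 that passed were well above background on both arrays, and 17 were higher (70.8%, against 44.1% of all genes), none of them 2-fold. Just 1 was 2-fold lower, and the median was 0.16, or 0.26 after quantile normalisation. Fasn, the synthase that AIM is known to restrain, differed by -0.10 (140291 and 168664). Scd1, a desaturase, differed by 0.79, and Thrsp, a regulator of lipogenesis, by -1.01. Of 33 genes of fatty acid oxidation or targeted by PPAR alpha, 22 were higher (66.7%, against 44.1% of all genes). At least 2-fold higher were 3 (9.09%, against 4.4%), with a median of 0.15, or 0.33 after quantile normalisation. Fgf21, a fasting hormone of the liver, read 114 and 32.2 (at background) in chow, 272 and 2065 at 6 weeks, and 986 to 1708 later. Its difference was 2.56, and a second probe gave 2.87. Pdk4, which spares glucose, read 99.2 and 532 (2.06), but in chow it was lower in the knockout by 3.83 on the log2 scale. Among bile acid genes, Cyp8b1, which makes cholic acid, read 418 and 2740 (2.35) and Cyp7a1, the rate-limiting enzyme, 871 and 549 (-1.03, with a second probe at -0.25).

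Stress and growth-arrest genes of the p53 list were higher in part. Of 20 that passed, 15 were higher, 4 at least 2-fold (20.0%, against 4.4% of all genes) and none 2-fold lower, with a median of 0.21. Gdf15, a stress hormone, read 509 and 8062 at 6 weeks (3.62), against 2093 and 4088 in chow. Cdkn1a, the cell cycle inhibitor p21, read 37.2 and 466 (3.28). At 12 and 20 weeks both genotypes stood at 3704 or more for Gdf15 and at 315 or more for Cdkn1a. Phlda3, a repressor of Akt, read 171 and 598 (1.44). The tumour-associated surface protein Ly6d read 290 and 236 in chow, 661 and 5150 at 6 weeks, and 7345 to 36533 later. The list of carcinoma and fetal liver genes was mixed. Of 12 that passed, 7 were higher (58.3%, against 44.1% of all genes) and 5 lower. At least 2-fold, 4 were higher (33.3%, against 4.4%) and 3 lower (25.0%, against 5.01%). The median was 0.33, or -0.10 over every measured member. Anxa2, an annexin, read 453 and 2437 (2.06). Of 22 cell cycle genes that passed, 9 were higher and 13 lower, so the list had no common direction.

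Genes of the extracellular matrix and of vessels were higher in the knockout. Of 28 stellate cell and fibrosis genes that passed, of 33 on the array, 21 were higher and 8 at least 2-fold (28.6%, against 4.4% of all genes). The median was 0.51, or 0.37 with dim signals set to their bound. All 28 were well above background on the knockout array and 24 on both, so the others passed through the knockout array alone. Over the 24 the median was 0.36. Col1a1, the main fibre collagen, read 56.2 and 65.8 in chow, 35.3 and 308 at 6 weeks, and 655 to 977 later (2.76 at 6 weeks). Col3a1 read 282 and 860 (1.24), Col6a3 54.1 and 175 (1.33) and Col4a1 126 and 329 (1.02). Acta2, the actin of activated stellate cells, differed by 0.30, and Timp1, a matrix protease inhibitor, by -0.27. Of 22 endothelial markers, 20 were higher (90.9%, against 44.1% of all genes) and 2 at least 2-fold (9.09%, against 4.4%), with a median of 0.36. All 22 were well above background on the knockout array and 19 on both, so here too the others passed through the knockout array alone. Over the 19 the median was 0.35. Lyve1, a hyaluronan receptor of sinusoids, read 65.0 and 195 (1.22), and Stab2, a scavenger receptor there, 672 and 1210 (0.48). More cells of a type and more RNA per cell cannot be told apart in whole liver.

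The medians of both macrophage lists had opposite signs. Of 19 Kupffer cell and macrophage markers, all on both arrays, 16 were lower (84.2%, against 55.9% of all genes), and the median was -0.31. Just 1 was at least 2-fold lower (5.26%), a share near the 5.01% of all genes. Before scaling, the summed signal of all 20 markers on the array was 50463 on the wild-type and 50148 on the knockout array. The knockout array was the brighter one, by a ratio of 1.29 at the 75th percentile, so these sums are not on the scale of the differences. Clec4f, found only in Kupffer cells, read 7924 and 7781 (-0.39), Marco, a scavenger receptor, 4815 and 3462 (-0.84), and Cd163, a haemoglobin receptor, 918 and 534 (-1.15). Of 10 genes of lipid-associated and recruited macrophages that passed, of 15 on the array, 9 were higher and 3 at least 2-fold, with a median of 0.72, while 44.1% of all genes were higher and 4.4% at least 2-fold. Spp1, osteopontin, read 412 and 543 in chow, 580 and 2180 at 6 weeks, and 9389 to 27101 later (1.54). Cd63, a tetraspanin, read 208 and 669 (1.32), Itgax, an integrin, 33.6 and 99.2 (1.20), and Trem2, a lipid receptor, 174 and 398 (0.83). Spp1 is also made by bile duct cells. Of 16 bile duct markers, 9 were detected on either array, 7 on the wild-type array, 8 on the knockout array and 6 on both. Of the 9, 8 were higher in the knockout (88.9%, against 44.1% of all genes). Spp1 itself is a member of this list and stands among the 8. The other, Tff3, was lower and is named below among the largest lower bounds. Krt19, a bile duct keratin, was not well above background on the wild-type array and was at least 4.41-fold higher on the knockout array. The part of bile duct cells in the Spp1 difference was not tested. All 5 neutrophil markers that passed, of 14 on the array, were lower, while 55.9% of all genes were. S100a8 and S100a9, which form calprotectin, differed by -1.67 and -1.51.

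Complement and acute phase genes were mostly lower, by less than 2-fold. Of 25 listed complement genes, 24 were lower (96.0%, against 55.9% of all genes), with a median of -0.45. In this list 2 were at least 2-fold lower (8.0%, against 5.01%). The list does not hold every complement gene named below, and more than 2 of those named were at least 2-fold lower. C8b, of the membrane attack complex, read 5857 and 10869 in chow, 4637 and 1444 at 6 weeks, and 465 to 1467 later (-2.05 at 6 weeks). C8a (-1.51), C9 (-1.40) and C6 (-1.15), which stand among the male-biased genes, were lower too, whereas C8g, the last subunit of the complex C8, differed by -0.28. C3, the central component, differed by -0.45. Cfd, adipsin, an activator of the alternative pathway made chiefly by fat cells, read 133 and 65.8 in chow, 13622 and 2480 at 6 weeks, and 784 or less later. It was thus highest in the 6-week wild type. Of 8 fat cell markers, Cfd and Car3 were detected on both arrays, and Adipoq, Lep and Plin1 were at background on both. Of 26 acute phase genes, 20 were lower (76.9%, against 55.9% of all genes), none at least 2-fold. Just 1 was 2-fold higher, and the median was -0.49. Saa1 (-0.65) and Hp, haptoglobin (-0.56), were among the lower genes, and Mt2, a metallothionein, was the higher one (1.51). All 11 hepatocyte defining markers were lower too, with a median of -0.20, and this median was 0.00 after quantile normalisation. After it, the complement median was -0.31 and the acute phase median -0.35, so both kept their direction. Other lists of plasma proteins had medians nearer 0. Of 22 apolipoprotein and lipoprotein genes, 11 were higher and 11 lower, with a median of -0.03 (0.10 after quantile normalisation). Of 17 coagulation genes, 13 were lower (76.5%, against 55.9% of all genes). Their median of -0.20 was -0.04 with a normexp background correction and -0.08 after quantile normalisation.

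**Figure D4:**
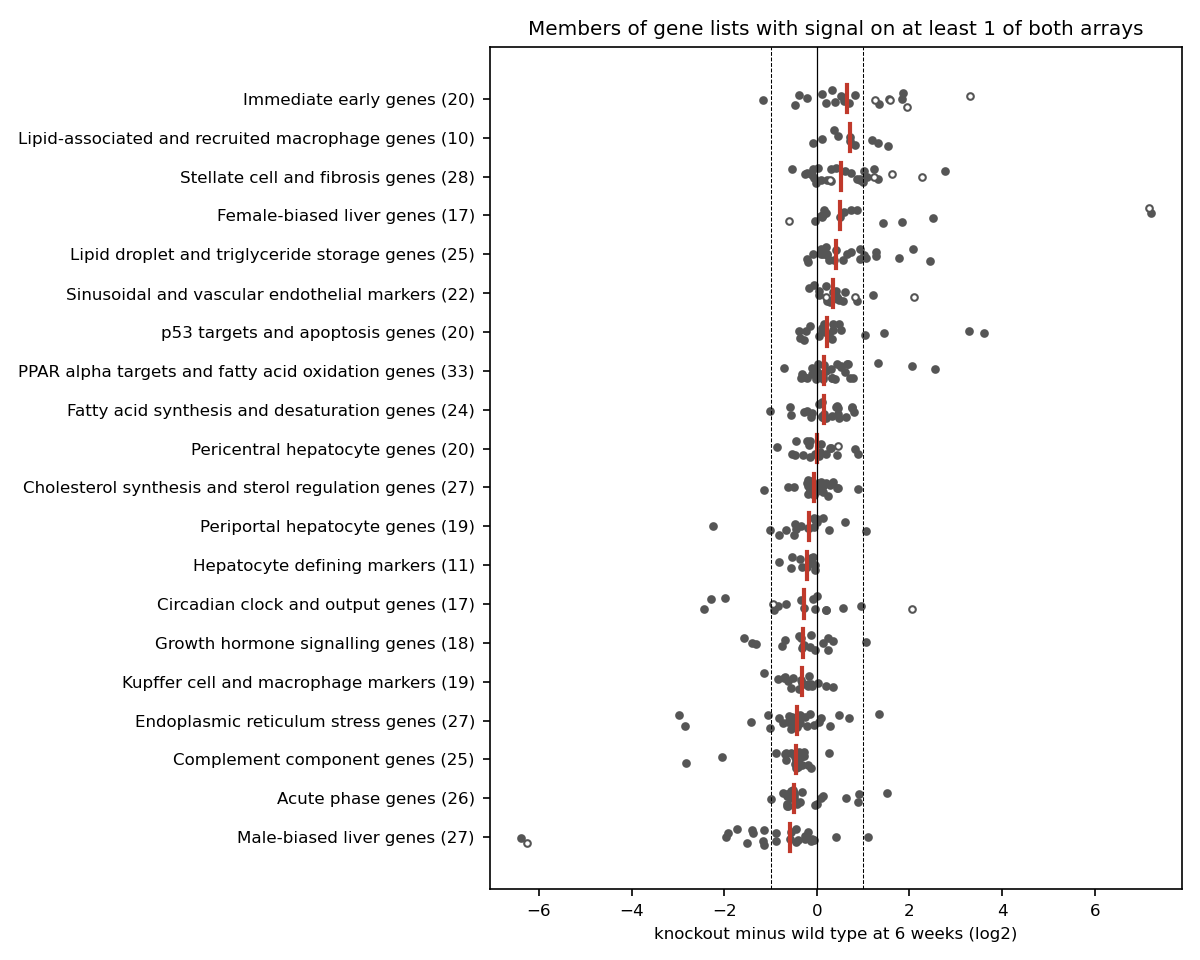
Difference between knockout and wild type at 6 weeks (log2, x axis) for members of 20 gene lists, 1 point per gene that passed the filter (number in brackets), open where only 1 array was well above background. Red bars mark list medians, from 0.72 for lipid-associated macrophage genes to -0.59 for male-biased genes; dashed lines mark 2-fold.

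Endoplasmic reticulum stress genes were lower in the knockout with a few exceptions. All 27 were well above background on both arrays, and 21 were lower (77.8%, against 55.9% of all genes). At least 2-fold lower were 5 (18.5%, against 5.01%), and the median was -0.42. Derl3, which helps to export misfolded proteins from the reticulum, read 120 and 84.7 in chow, 556 and 100 at 6 weeks, and 99.0 to 155 later. The 6-week wild type stood above all other arrays, and the difference at that week was -2.84. Sdf2l1, a chaperone partner, read 2318 and 1115 (-1.42), Creld2, a secreted stress factor, 8234 and 5299 (-1.002), and Hspa5, the main chaperone of the reticulum, 26980 and 22574 (-0.62). Asns, asparagine synthetase, read 1153 and 6027 in chow, 556 and 91.2 at 6 weeks, and 62.9 to 125 later (-2.97). Chac1, which degrades glutathione, differed by -1.04. The largest exceptions were Atf3, a stress transcription factor, which read 99.8 and 325 (1.33), Trib3, a kinase-like inhibitor of Akt (0.70), and Ddit3, a death-promoting transcription factor (0.49). The list's median was -0.09, 0.43 and 0.10 at 0, 12 and 20 weeks.

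Promoters were searched for the endoplasmic reticulum stress element and the element of ATF4, a factor of this response, in the 250 bases before the start. Of 24 listed genes with a promoter in the RefSeq table, 8 held the endoplasmic reticulum stress element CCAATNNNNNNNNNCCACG on either strand, and 0.113% of all 32851 windows did. These were Calr, Canx, Creld2, Derl3, Dnajc3, Hsp90b1, Hspa5 and Pdia6. All 8 were lower in the knockout, by -2.84 to -0.21, while 55.9% of all genes were lower. On the whole array 18 genes with this element were well above background on both arrays, with a median of -0.28, and these include the listed 8. The element is in capitals below for Derl3 (chr10:75893148-75893397, plus strand), Creld2 (chr15:88819396-88819645, plus strand) and Hspa5 (chr2:34771840-34772089, plus strand), shown because their differences were the largest of the 8. In Derl3 and Creld2 it reads on the opposite strand.
Derl3: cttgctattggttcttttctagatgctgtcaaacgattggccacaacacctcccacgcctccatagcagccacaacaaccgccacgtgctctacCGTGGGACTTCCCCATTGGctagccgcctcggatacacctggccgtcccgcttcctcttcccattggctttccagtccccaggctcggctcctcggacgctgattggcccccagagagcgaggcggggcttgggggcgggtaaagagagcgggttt
Creld2: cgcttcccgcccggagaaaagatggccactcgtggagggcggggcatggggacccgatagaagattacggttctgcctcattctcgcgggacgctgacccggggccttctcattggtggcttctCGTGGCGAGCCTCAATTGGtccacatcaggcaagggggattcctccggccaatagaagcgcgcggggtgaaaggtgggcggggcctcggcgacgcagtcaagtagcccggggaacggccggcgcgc
Hspa5: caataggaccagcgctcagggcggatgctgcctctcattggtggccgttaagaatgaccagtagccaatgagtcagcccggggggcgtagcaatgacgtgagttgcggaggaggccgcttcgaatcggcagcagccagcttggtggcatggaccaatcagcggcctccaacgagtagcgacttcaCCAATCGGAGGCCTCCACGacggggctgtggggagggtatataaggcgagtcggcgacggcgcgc
The element of ATF4, TGATGNAA, stood in 4 of the 24 (Asns, Atf3, Chac1 and Herpud1) and in 3.45% of all windows. It stands in Fgf21 as well. The genes that share it did not share a direction, since Asns, Chac1 and Herpud1 (-0.57) were lower and Atf3 and Fgf21 higher. The 229 genes with it that were well above background on both arrays had a median of -0.04. It is in capitals below for Asns (chr6:7693210-7693459, minus strand) and Fgf21 (chr7:45615491-45615740, minus strand), the lowest and the highest of the genes named. In Fgf21 it reads on the opposite strand.
Asns: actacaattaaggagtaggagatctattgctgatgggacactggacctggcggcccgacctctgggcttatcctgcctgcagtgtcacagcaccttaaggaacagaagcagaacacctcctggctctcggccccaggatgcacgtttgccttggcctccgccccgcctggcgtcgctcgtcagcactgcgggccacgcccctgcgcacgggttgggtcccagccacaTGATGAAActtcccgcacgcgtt
Fgf21: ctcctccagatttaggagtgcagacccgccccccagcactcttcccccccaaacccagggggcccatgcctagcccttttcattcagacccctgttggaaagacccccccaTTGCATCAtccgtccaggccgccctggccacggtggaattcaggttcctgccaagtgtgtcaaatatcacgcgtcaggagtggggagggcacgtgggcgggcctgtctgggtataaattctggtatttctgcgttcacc

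Clock and immediate early genes differed too, and both follow the time of day or the handling of an animal. Of 17 clock genes that passed, 12 were lower (70.6%, against 55.9% of all genes). At least 2-fold lower were 3 (17.6%, against 5.01%). The median was -0.27, against 1.06 in chow. Usp2, a clock-controlled protease, read 627 and 150 (-2.43), Per1, a clock repressor, 960 and 312 (-1.99), and Ciart, another repressor, 195 and 51.7 (-2.28). Arntl, the clock activator BMAL1, was not well above background on the wild-type array and at least 3.91-fold higher on the knockout array. Of 20 immediate early genes that passed, of 24 on the array, 16 were higher and 8 at least 2-fold. Of all genes, 44.1% were higher and 4.4% at least 2-fold higher. The median of the list was 0.64, or 0.54 with dim signals at their bound, and -1.39 at 20 weeks. All 20 were well above background on the knockout array and 16 on both, so the others passed through the knockout array alone. Over the 16 detected on both arrays the median was 0.46. Egr1, a growth-response factor, read 82.6 and 384 (1.85), Nr4a1, an orphan receptor, 472 and 2192 (1.85), and Jun 184 and 701 (1.56), while Myc was lower (-1.16). The hour of collection is not in the labels, and its part in these differences was not tested.

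Of the 15 largest differences in each direction beside Cd5l, those not yet named were Ehd2 (2.997), an endocytic ATPase, Tex26 (2.83), Spon2 (2.55), a matrix protein, Rad51b (2.37), a DNA repair factor, and A630001G21Rik (2.31). On the lower side they were Ces4a (-3.05), a carboxylesterase, Cabyr (-3.01), a calcium-binding sperm protein, Ms4a8a (-2.38), Ccnj (-2.32), a cyclin, Cdh1 (-2.25), E-cadherin, Rrp1b (-2.25), a nucleolar protein, and Upp2 (-2.25), a uridine phosphorylase. Rrp1b rested on 1 probe, since its other 2 gave -0.30 and -0.14. Cdh1 read 464 and 126, and it lay between 245 and 1368 on the other 6 arrays. Among genes dim on 1 array, the largest lower bounds on the higher side beside the Cyp2b genes were 14.1-fold for Oscp1, 13.6-fold for Lypd3, 12.1-fold for Mep1b, 11.5-fold for Mlip, 11.3-fold for Gprc5b and 8.80-fold for Slc34a2. On the lower side they were 20.7-fold for Tff3, a trefoil factor of mucous cells, 13.1-fold for Bnip5, 12.2-fold for Aipl1, 11.3-fold for Tshr, 10.4-fold for Ank1, 9.86-fold for Rell2 and 8.89-fold for Robo2. Ank1, Mep1b, Rell2, Robo2 and Tshr were well above background on only 1 of the 8 arrays.

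A last comparison asked which 6-week differences exceeded those of the other weeks, with the spread of the other 3 weekly differences as error. By limma, 0 of 14969 genes passed a Benjamini-Hochberg adjusted p of 0.05, and 1056 (7.05%) had an unadjusted p under 0.05. With 2 residual degrees of freedom only very large differences could pass. Cyp2b13 and Cyp2b9 came first, with differences of 7.57 (SE 0.34) and 7.47 (SE 0.31) beyond the mean of the other weeks and a limma adjusted p of 0.213 each. Both passed with a normexp background correction (limma adjusted p of 0.0382 and 0.0260) and with a trended, robust variance (0.00906 each). They were the only genes to pass under either setting. Without the 20-week pair their differences were 7.76 (SE 0.27) and 7.62 (SE 0.28), with a limma adjusted p of 0.679 each.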

How the data were processed

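Liver RNA of 8 groups (2 genotypes at 4 times of diet, 1 array each) was measured on one-colour Agilent arrays. The authors' scanner files hold a processed signal intensity per spot, with background already subtracted; the submitters' processing notes name Agilent Feature Extraction 9.5. The authors' deposited value table holds log2 values, which a comparison with the scanner files showed to be the log2 processed signal minus each array's 75th percentile. It served as an alternative only.

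Control spots (1639) and outlier spots (75 to 130 per array) were dropped, replicate spots averaged, and each array's log2 signals scaled by its 75th percentile. The probe with the highest mean over 8 arrays stood for a gene, which gave 27586 genes. Symbols came from a RefSeq table of GRCm38.p6 (8061 of 41174 probes matched none and kept the file's name), and probe positions are on mm8. Genes needed a spot mark of well above background on either 6-week array. For a probe dim on 1 array, the lowest well-above-background signal of that array, or its own signal if higher, gave a lower bound of the fold. The error of a difference combined both spot errors of the scanner software.

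The contrast of 6 weeks against the other weeks used limma 3.58.1 in R 4.3.3 on all 8 arrays, with week, genotype and genotype at 6 weeks as terms (2 residual degrees of freedom), for genes detected on at least 2 arrays. It assumes that the lone 6-week pair varies like the others, and it was tested on simulated data, in which it recovered part of the largest planted changes and none of the smaller ones. Named genes were Cd5l, the 15 largest differences each way, the 8 largest lower bounds each way, members of the 46 gene lists (909 genes) at least 2-fold apart, paralogs beside them, and further list members as examples. The comparison and the lists were chosen with earlier results of these data known. Single-array signals limit the precision, and nothing says whether arrays stand for 1 animal. Alternatives covered the signal filter, background correction (normexp with an offset of 50), scaling, probe choice, fold and weeks.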

Additional observations from a re-analysis of the deposited data

Results flagged for a closer look

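Among the 30 largest differences with signal on both arrays, 7 genes were at least 2-fold apart in the opposite direction in another week. In chow the knockout was higher for Asns (2.23, against -2.97 at 6 weeks), Upp2 (2.39, against -2.25) and Usp2 (2.20, against -2.43), and lower for Cyp8b1 (-1.75, against 2.35) and Spon2 (-2.11, against 2.55). At 12 weeks it was higher for Cdh1 (1.18, against -2.25). At 20 weeks it was lower for Gdf15 (-1.77, against 3.62). Each value rests on 1 array per genotype, and the difference between these weeks was not tested.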

How the results depend on the processing

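The count of genes 2-fold apart depends on dim signals and on the threshold. Beside the 1355 genes at least 2-fold apart, 478 remained in the count with signal on both arrays, 2515 without a filter and 485 with normexp, and 2791 lay 1.5-fold and 798 3-fold apart. The other 7 settings, bounds for dim signals among them (added after seeing the data), stayed within 1.5 times. The contrast against other weeks passed 2 genes with normexp and 2 with a trended, robust variance, and 0 in the main fit and with any week left out, with quantile normalisation or without a filter. Of 37 list medians, 6 changed sign with normexp and 5 with quantile normalisation. List medians moved by more than the typical spot error in few cases. That error, 0.22, is the median over the 391 genes and belongs to single genes, not to list medians. Many list medians were smaller than it, so such a median could reach 0 and not be counted as moved. The male-biased median was -0.83 over the mean of probes, the immediate early median 0.36 with normexp, the cholangiocyte median 0.17 over every measured member (0.58 otherwise), and the carcinoma list's median 0.61 on both arrays and -0.10 over every measured member (0.33 otherwise). Diet genes chosen at 4-fold (a choice added later, like the other settings for them) had medians of 0.63 and -0.79, and those chosen on wild-type or knockout arrays alone 0.15 to 0.19 and -0.21. Leaving the 20-week arrays out of the counts across weeks, also a later choice, moved them by less than 1.5 times. The count of genes not 2-fold apart the same way could only stay or rise, to 391 at most, so that limit was no check of it. All 47 genes with the largest differences kept their direction and stayed at least 2-fold apart under normexp, quantile, array-median scaling and the authors' table, but 41 moved by more than their spot error with normexp. No paired analysis was possible because both groups compared at 6 weeks hold 1 array each and so share a single replicate number. The contrast against other weeks sets the genotypes against each other within each week. Signals near background limit what can be said of genes dim on either array.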
